A study of Mus musculus with 9 samples.

Results

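The genes described here are 10 immediate early genes of the AP-1, EGR and NR4A families in mouse ovary: Fos, Fosb, Fosl2, Jun, Junb, Egr1, Egr2, Egr3, Nr4a1 and Nr4a2. They were chosen by name, with earlier results of these data known, and 10 of the 22544 entries of the deposited expression table carry these symbols. The shares of members and of all genes set side by side below are therefore descriptions and not tests. Of the 10 members, 8 reached 1 FPKM (fragments per kilobase of transcript, scaled to the mapped fragments of the library) in at least 3 of the 9 libraries and were tested, together with 13338 entries in all that passed the same filter. Fosb and Egr3 did not reach it and are described by their values, without a test.

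The study sequenced polyadenylated RNA of mouse ovary, with 9 libraries that fall into 3 groups of 3. CTX usually abbreviates cyclophosphamide, a DNA-alkylating chemotherapy agent known to damage ovarian follicles. HBOT stands for CTX combined with hyperbaric oxygen in the design text, so the CTX treatment is common to both groups, and the labels of the NC group name neither treatment. Strain, age, dose, schedule and the time from the last treatment to tissue collection were not given in the labels used here. Nothing in the labels ties each replicate to its own animal, so a p-value here reflects only the spread between these samples, which may be technical.

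Immediate early genes are transcribed within minutes of a stimulus from factors that are already present, such as SRF with its ternary complex partners, CREB and ATF proteins, and they need no new protein synthesis. FOS and JUN proteins pair through leucine zippers to form AP-1, EGR proteins bind GC-rich sites through zinc fingers, and NR4A proteins are orphan nuclear receptors whose activity is set largely by how much of them is made. In the ovary, the luteinizing hormone surge induces many of them in granulosa cells ahead of ovulation, and tissue handling or stress can also induce them. Bulk tissue cannot tell fewer cells of a type from less RNA per cell, and this holds for every level given below.

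The promoters of Fos, Junb, Egr2 and Nr4a1, and that of Jun, which had a different pattern across the libraries, are shown first. Each is given as the 250 bases before a RefSeq transcription start on GRCm38.p6. RefSeq windows were matched by symbol for 8 of the 10 members (12 windows), all but Egr1 and Egr3. Each window reads 5′ to 3′ along the gene's strand. Capitals mark the cyclic AMP response core TGACG or its reverse complement CGTCA, the CArG box bound by SRF, the EGR motif GCGNGGGCG or its reverse complement, and, in Jun, TGACATCA, a relative of the AP-1 site.

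Fos, chr12:85473640-85473889, plus strand: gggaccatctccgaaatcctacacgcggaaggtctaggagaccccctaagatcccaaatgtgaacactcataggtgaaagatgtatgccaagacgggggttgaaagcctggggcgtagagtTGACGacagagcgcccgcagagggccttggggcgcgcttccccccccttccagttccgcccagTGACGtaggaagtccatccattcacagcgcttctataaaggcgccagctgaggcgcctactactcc

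Junb, chr8:84978749-84978998, minus strand: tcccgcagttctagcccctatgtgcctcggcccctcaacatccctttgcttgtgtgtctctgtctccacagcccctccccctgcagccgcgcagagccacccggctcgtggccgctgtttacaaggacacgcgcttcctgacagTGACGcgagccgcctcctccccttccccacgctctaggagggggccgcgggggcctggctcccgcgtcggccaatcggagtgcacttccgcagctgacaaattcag

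Jun, chr4:95052223-95052472, minus strand: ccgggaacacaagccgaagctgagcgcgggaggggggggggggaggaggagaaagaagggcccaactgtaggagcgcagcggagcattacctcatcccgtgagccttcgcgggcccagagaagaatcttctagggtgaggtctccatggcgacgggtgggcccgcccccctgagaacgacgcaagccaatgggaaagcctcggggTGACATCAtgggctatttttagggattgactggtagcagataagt

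Egr2, chr10:67537619-67537868, plus strand: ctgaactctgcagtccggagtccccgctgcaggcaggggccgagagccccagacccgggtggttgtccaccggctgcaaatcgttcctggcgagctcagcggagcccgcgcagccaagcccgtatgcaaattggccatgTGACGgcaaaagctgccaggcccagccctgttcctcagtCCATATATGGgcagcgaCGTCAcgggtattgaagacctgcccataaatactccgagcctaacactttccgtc

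Nr4a1, chr15:101266596-101266845, plus strand: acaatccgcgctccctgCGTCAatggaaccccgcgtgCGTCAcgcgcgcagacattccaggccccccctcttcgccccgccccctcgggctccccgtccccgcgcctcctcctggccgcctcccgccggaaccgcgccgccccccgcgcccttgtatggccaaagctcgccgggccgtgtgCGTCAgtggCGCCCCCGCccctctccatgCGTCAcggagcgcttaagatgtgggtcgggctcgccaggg

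On either strand, TGACG was present in 8 of the 12 windows, belonging to 6 of the 8 members: Fos, Fosb, Junb, Egr2, Nr4a1 and Nr4a2. Of 32817 RefSeq windows of the same length, 17.7% held it. The Nr4a1 and Nr4a2 windows held 4 copies each, and in Fos the copies lay 129 to 125 and 66 to 62 bases before the start. The EGR motif was found in Fosb, Fosl2, Nr4a1 and Nr4a2, against 4.70% of all windows. A CArG box was found in 4 Egr2 windows, which overlap in part, against 1.47% of all windows. In the window shown for Egr2 it lay 72 to 63 bases before the start.

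Jun was the member with TGACATCA, 45 to 38 bases before its start, against 2.93% of all windows. Its window held no TGACG. The full site TGACGTCA, which contains TGACG, the AP-1 site TGANTCA and the NR4A site AAAGGTCA matched 0 of the 12 windows, against 1.55%, 6.75% and 1.34% of all windows. These are matches of letters in a short window and say nothing of binding.

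HBOT replicate 2 stood apart in nearly every member and is given apart throughout. It was the highest of the 9 libraries for 9 of the 10 members, all but Jun, while it was the highest for 19.5% of all tested genes. It lay at least 2 log2 units above the mean of the other 8 libraries for 7 of the 10 members, against 1.27% of tested genes. The same library had 1358 summed FPKM over 16 genes of the ovulatory response (such as Areg, Ptgs2 and Il6, each at 0 in some other library), against 65.5 to 196 in the other 8. All 16 reached 1 FPKM in it, and as few as 4 did in the lowest library. The deposited FPKM gives no read numbers, so sequencing depth is unknown.

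**Figure D1:**
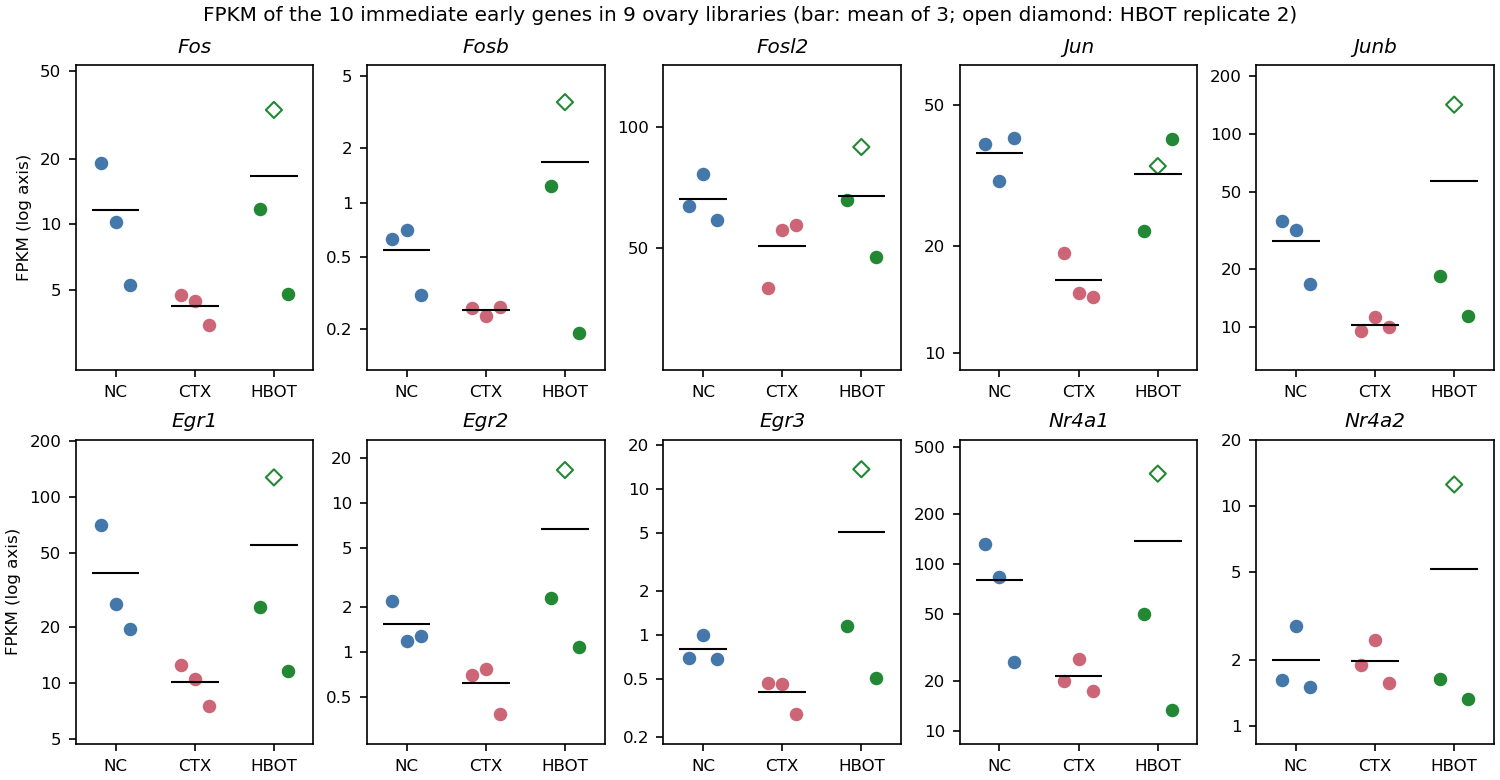
FPKM of each of the 10 genes (one panel per gene, log axis) in the NC, CTX and HBOT libraries; points are single libraries, bars are the means of 3 libraries and the open diamond is HBOT replicate 2. The diamond is the highest point in every panel but that of Jun, and the 3 CTX points lie below the 3 NC points for 8 of the 10 genes, all but Nr4a1 and Nr4a2.

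In the CTX libraries most members were lower than in the NC libraries, and none passed the test across all genes. Compared with NC, 9 of the 10 members had a lower mean log2 value in CTX (40.5% of all tested genes did), and for 8 of them the 3 CTX libraries lay below the 3 NC libraries without overlap. Of all tested genes, 7.8% were lower without overlap, and 6 of the 8 tested members were. The median log2 fold change of the 10 members was -0.88, against 0.05 for all tested genes. A log2 fold change here is a difference of mean log2(FPKM + 1), so it understates changes at low levels.

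At an adjusted p under 0.05, 0 of the 13338 genes (0.0%) and so 0 members were called in CTX against NC by limma with Benjamini-Hochberg adjustment. At an unadjusted p under 0.05 there were 1065 genes (7.98%), of which 366 were lower in CTX (2.74% of all), and 1 member, Jun. HBOT replicate 2 enters this test through the shared estimate of spread. Without it the fold changes stay as they are, 8 genes (0.06%) and 0 members were called, and 6 members had an unadjusted p under 0.05 and were lower (Fos, Jun, Junb, Egr1, Egr2 and Nr4a1), against 5.66% of all tested genes.

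Fos (ENSMUSG00000021250) encodes the inducible FOS partner of AP-1. It was at 19.2, 10.3 and 5.30 FPKM in NC replicates 1 to 3 and at 4.75, 4.47 and 3.47 FPKM in the CTX libraries. HBOT replicates 1 and 3 had 11.8 and 4.81 FPKM, and HBOT replicate 2 had 33.4 FPKM. The NC and CTX libraries did not overlap, but the gap between the lowest NC and the highest CTX library was small beside the spread within NC, where the highest library was 3.62-fold the lowest. The means were 11.6 ± 7.03 FPKM in NC and 4.23 ± 0.68 FPKM in CTX (SD, n = 3), which is -1.12 on the log2 scale (SE 0.61, adjusted p = 0.724, limma). It was -0.70 without NC replicate 1.

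Fosb (ENSMUSG00000003545), a FOS relative known for its stable splice product in nerve cells, was barely detected. Its levels were 0.627, 0.701 and 0.310 FPKM in NC, and 0.262, 0.236 and 0.265 FPKM in CTX. In HBOT it was at 1.24 and 0.190 FPKM in replicates 1 and 3 and at 3.59 FPKM in replicate 2. All 6 values of the NC and CTX groups were below 1 FPKM, with those of CTX the lower.

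Fosl2 (ENSMUSG00000029135) encodes FRA2, a FOS protein with a slower and longer induction. It was among the most abundant members, at 63.5, 76.6 and 58.7 FPKM in NC and at 39.7, 55.4 and 57.0 FPKM in CTX. In HBOT the levels were 65.7 FPKM in replicate 1, 47.3 in replicate 3 and 89.3 in replicate 2. The NC and CTX groups were separated by less than the spread within either, with a log2 difference of -0.39 (SE 0.23, adjusted p = 0.761), and -0.22 without CTX replicate 1.

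Jun (ENSMUSG00000052684), which encodes the central JUN partner of AP-1, showed the clearest separation of NC and CTX. Its levels were 38.9, 30.6 and 40.5 FPKM in NC and 19.2, 14.8 and 14.4 FPKM in CTX. Of the HBOT libraries, replicate 1 had 22.2 FPKM, replicate 3 had 40.1 FPKM and replicate 2 had 33.7 FPKM. Every NC library was above every CTX library, the highest NC library was 1.33-fold the lowest, and the 3 HBOT libraries lay above the 3 CTX libraries. The mean of 36.7 ± 5.34 FPKM in NC against 16.1 ± 2.68 FPKM in CTX (SD, n = 3) gave a log2 fold change of -1.14 (SE 0.22, unadjusted p = 0.000656, adjusted p = 0.250, limma).

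The log2 fold change of Jun was between -1.26 and -1.06 in all settings tried, and its adjusted p between 0.0470 and 0.625. The value of 0.0470 came from limma with library weights, in which HBOT replicate 2 had a weight of 0.0998. Without HBOT replicate 2 the adjusted p was 0.107. In the GENCODE M21 annotation Jun shares 232 exonic bases with Junos on the opposite strand, a gene that was not analysed here, and whether the counting used strand was not given in the sources used here.

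Junb (ENSMUSG00000052837), whose product pairs with FOS proteins and often restrains JUN, was at 35.4, 32.0 and 16.8 FPKM in NC. In CTX it was at 9.63, 11.3 and 10.05 FPKM, a narrow range below all NC libraries. The HBOT group had 18.4 FPKM in replicate 1, 11.4 in replicate 3 and 142 in replicate 2, the last of which was 7.86-fold the mean of the other 8 libraries. The log2 fold change between CTX and NC was -1.30 (SE 0.77, adjusted p = 0.757, and 0.126 without HBOT replicate 2). In GENCODE M21 Junb shares 173 exonic bases with Prdx2, a peroxidase gene on the opposite strand. Prdx2 was at 196 to 287 FPKM in the other 8 libraries and 385 FPKM in HBOT replicate 2, and at 261 ± 16.5 FPKM in NC and 255 ± 51.3 FPKM in CTX (SD, n = 3). Its part in the Junb values was not tested.

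Egr1 (ENSMUSG00000038418) encodes a zinc finger factor that luteinizing hormone induces in the ovary. It was at 70.6, 26.4 and 19.5 FPKM in NC and 12.5, 10.5 and 7.47 FPKM in CTX. HBOT replicates 1 and 3 had 25.4 and 11.5 FPKM, and HBOT replicate 2 had 128 FPKM. The highest NC library was 3.62-fold the lowest, yet all 3 NC libraries lay above the CTX libraries, with HBOT replicate 3 inside the CTX range. The log2 fold change of -1.65 between CTX and NC was the lowest of the members (SE 0.78, adjusted p = 0.666, and 0.190 without HBOT replicate 2).

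Egr2 (ENSMUSG00000037868) encodes a relative of EGR1 best known from Schwann cells. Its levels were 2.20, 1.19 and 1.28 FPKM in NC and 0.704, 0.780 and 0.390 FPKM in CTX. In HBOT it was at 2.30 FPKM in replicate 1, 1.09 in replicate 3 and 16.6 in replicate 2. The CTX libraries were below all others, with a log2 fold change of -0.64 against NC (SE 0.66, adjusted p = 0.896, and 0.250 without HBOT replicate 2). With a pseudocount of 0.1 that value was -1.19.

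Egr3 (ENSMUSG00000033730), known as a target of EGR1 and of calcium signalling in lymphocytes, was low outside HBOT replicate 2. It had 0.694, 0.998 and 0.686 FPKM in NC and 0.466, 0.457 and 0.284 FPKM in CTX. Under HBOT, replicates 1 and 3 had 1.14 and 0.508 FPKM, and replicate 2 had 13.7 FPKM. That value was 20.9-fold the mean of the other 8 libraries, the highest such ratio among the members.

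Nr4a1 (ENSMUSG00000023034), which encodes NUR77 and in the ovary is linked to steroid production in theca cells, had the widest range of the members over the 8 libraries other than HBOT replicate 2. It was at 131, 83.9 and 26.1 FPKM in NC and at 19.8, 27.0 and 17.3 FPKM in CTX. The HBOT libraries had 50.1 FPKM in replicate 1, 13.4 in replicate 3 and 346 in replicate 2. NC replicate 3 lay just below the highest CTX library, so the groups overlapped, and within NC the highest library was 5.01-fold the lowest. The log2 fold change between CTX and NC was -1.61 (SE 1.03, adjusted p = 0.790, and 0.282 without HBOT replicate 2).

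Nr4a2 (ENSMUSG00000026826) encodes NURR1, best known from dopamine neurons. It had 1.61, 2.84 and 1.52 FPKM in NC and 1.91, 2.45 and 1.57 FPKM in CTX. HBOT replicates 1 and 3 had 1.63 and 1.33 FPKM, and HBOT replicate 2 had 12.5 FPKM. It was the one member whose mean log2 value was not lower in CTX, with a log2 difference of 0.01 (SE 0.59, adjusted p = 0.999), and its sign flipped under scaling to TPM, by median of ratios or by quantiles.

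The order of the members by FPKM, a unit per transcript length, was clearest in CTX. Fosl2 came first at 50.7 ± 9.58 FPKM (SD, n = 3), above Nr4a1 and Jun, whose ranges overlapped. Junb and Egr1 followed, also with overlapping ranges, then Fos, then Nr4a2, then Egr2 and Egr3 with overlapping ranges, and Fosb at 0.254 ± 0.0162 FPKM. In NC the mean of Nr4a1, 80.2 ± 52.4 FPKM, was above that of Fosl2, 66.3 ± 9.26 FPKM (SD, n = 3), but their ranges overlapped. Neighbours in the NC order overlapped everywhere except between Fos and Nr4a2 and between Egr2 and Egr3.

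The HBOT libraries had higher mean log2 values than the CTX libraries for all 10 members (38.4% of tested genes), with a median log2 fold change of 1.38, against -0.07 for all tested genes. This difference rested in large part on HBOT replicate 2. Without that library 9 of the 10 were higher, all but Nr4a2 (49.2% of tested genes), and the median was 0.42, against -0.00 for all tested genes. The HBOT libraries lay above the CTX libraries without overlap for 5 of the 10 members, Fos, Jun, Junb, Egr2 and Egr3, against 3.76% of tested genes. The 5 were also apart without HBOT replicate 2, where the share of all tested genes was 9.17%.

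For Fos, Junb and Egr3 that separation was narrow. HBOT replicate 3 had 4.81 FPKM of Fos against 4.75 in the highest CTX library, 11.4 FPKM of Junb against 11.3, and 0.508 FPKM of Egr3 against 0.466. By limma, 0 of the 13338 genes (0.0%) were called in HBOT against CTX, and 812 genes (6.09%) had an unadjusted p under 0.05. Among them were 3 members, Fos, Jun and Egr2, all higher in HBOT, as were 2.41% of tested genes. Without HBOT replicate 2, 0.0% were again called, and Jun and Egr2 were the 2 members with an unadjusted p under 0.05 and a higher level, against 3.05% of tested genes. CTX is the reference here and the treated group in the comparison with NC, so both comparisons share its libraries.

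Jun was the member least affected by leaving out HBOT replicate 2. Its log2 fold change between HBOT and CTX was 0.92 (SE 0.22, unadjusted p = 0.00263, adjusted p = 0.710, limma) with all libraries and 0.86 (SE 0.25, adjusted p = 0.708) without that library. Between HBOT and NC the difference on the log2 scale was -0.22 (SE 0.22, adjusted p = 0.674). Its HBOT levels covered the range from just above CTX, in replicate 1, to the upper end of NC, in replicate 3.

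The other members followed HBOT replicate 2 more closely. The log2 fold change between HBOT and CTX was 1.40 for Fos and 0.73 without that library, and 1.53 for Junb and 0.46 without it. Egr1 had 1.67 and 0.73, Egr2 had 1.61 and 0.70, and Nr4a1 had 1.53 and 0.30. Fosl2 had 0.38 and 0.15, and Nr4a2 had 0.56 and -0.26. The adjusted p of the 8 tested members lay between 0.710 and 0.754 with all libraries. For the untested Fosb and Egr3 the differences were 0.88 and 1.37, and 0.38 and 0.36 without HBOT replicate 2. With a pseudocount of 0.1 the difference was 1.67 for Fosb and 2.14 for Egr3.

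**Figure D2:**
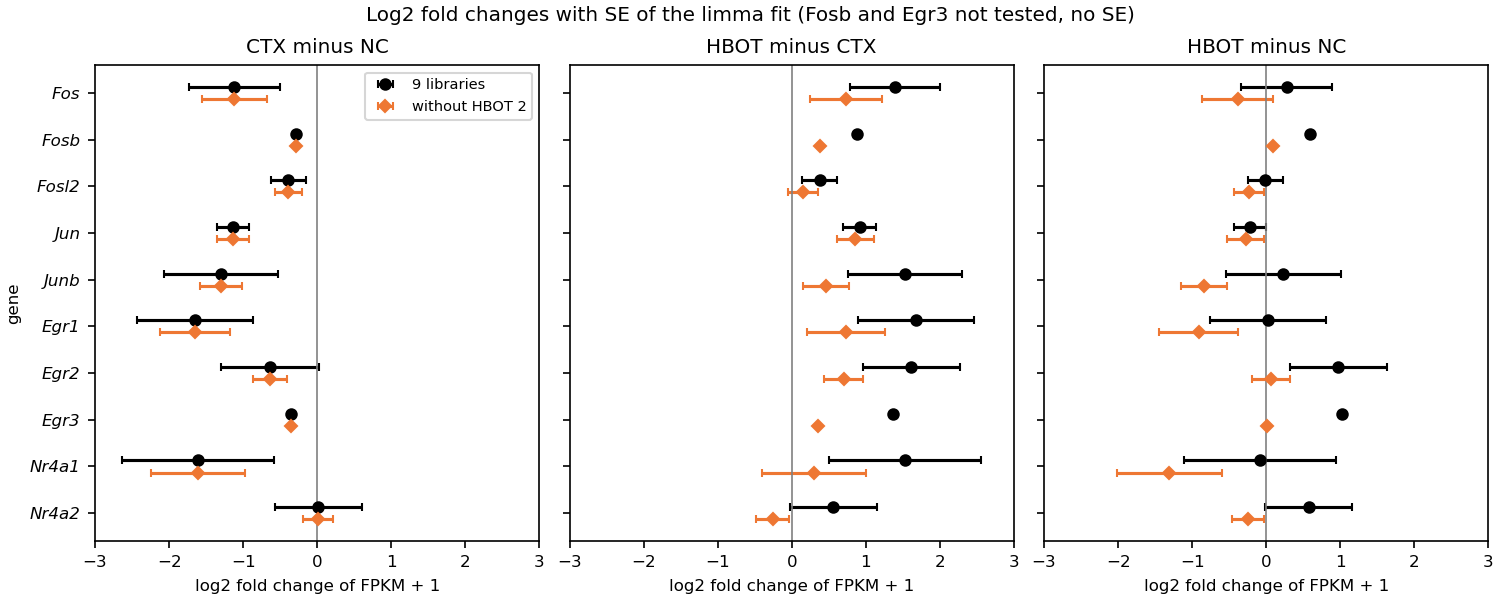
Log2 fold changes of FPKM + 1 for the 10 genes in the 3 comparisons, with all 9 libraries (black) and without HBOT replicate 2 (orange); bars are the SE of the limma fit, and Fosb and Egr3 have none because they were not tested. In CTX minus NC both points coincide, from -1.65 for Egr1 to 0.01 for Nr4a2, and in the panels with HBOT most orange points lie to the left of the black ones.

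In HBOT against NC the direction of the members depended on which library was left out. With all libraries, 7 of the 10 had a higher mean log2 value in HBOT (47.6% of tested genes did) and the median was 0.25, against -0.01 for all tested genes. Without HBOT replicate 2, 7 of the 10 were lower (41.8% of tested genes), and the median was -0.26, against 0.04. With HBOT replicate 2 kept and NC replicate 3 left out, the median of the members was -0.09. With all libraries the groups overlapped for every member, while 9.6% of tested genes were lower and 10.9% higher without overlap. By limma, 0 of the 13338 genes (0.0%) were called, 1584 genes (11.9%) had an unadjusted p under 0.05, and 0 members did. Without HBOT replicate 2, 0 genes (0.0%) were called, and 1755 genes (13.2%) and 1 member, Junb, had an unadjusted p under 0.05, with a log2 fold change of -0.84 for Junb (SE 0.31, adjusted p = 0.331).

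The members also varied within groups, in libraries other than HBOT replicate 2. Among these 8 libraries the highest value was at least 4 times the lowest for 6 members, Fos, Fosb, Egr1, Egr2, Egr3 and Nr4a1, against 6.93% of tested genes. The ratio was 9.76 for Nr4a1 and 9.46 for Egr1, and 1.93 for Fosl2. NC replicate 1 was the highest of the 8 for Fos, Junb, Egr1 and Nr4a1, against 6.55% of tested genes. The highest NC library had at least 2 times the lowest for 5 members, the same 4 and Fosb, against 7.71%.

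HBOT replicates 1 and 3 differed as well. HBOT replicate 1 was above replicate 3 for 9 of the 10 members, all but Jun, and by at least 1 log2 unit for Fos, Egr1 and Nr4a1, a gap seen in 0.735% of tested genes. In CTX the highest library was at most 2.00-fold the lowest in any member, the value for Egr2. Averaged over the 10 members, with each centred on its mean over the 8 libraries, the log2 profile was 0.77, 0.49 and -0.00 in NC replicates 1 to 3. It was -0.40, -0.32 and -0.57 in the CTX libraries, and 0.34 and -0.32 in HBOT replicates 1 and 3. HBOT replicate 3 thus lay with the CTX libraries in this average, and NC replicate 3 between the groups.

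**Figure D3:**
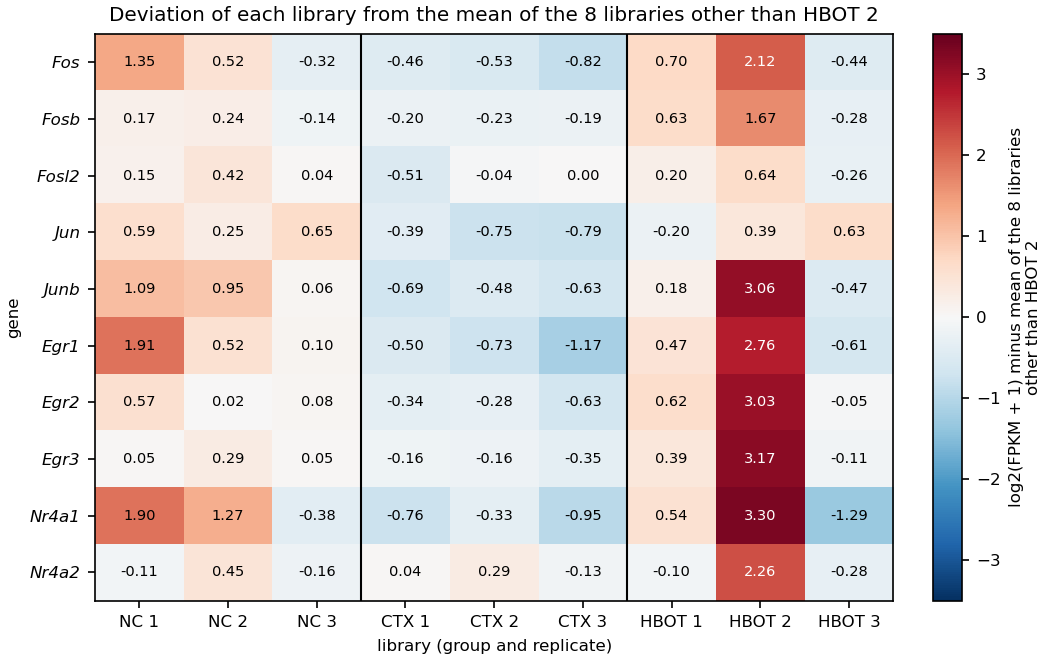
Log2(FPKM + 1) of each gene (rows) in each library (columns), as the difference from the gene's mean over the 8 libraries other than HBOT replicate 2; red is higher and blue lower, with the value printed in each cell. The HBOT 2 column holds the highest value of every row but that of Jun, up to 3.30 for Nr4a1, and the CTX columns are at or below 0.04 except for Nr4a2 in CTX replicate 2.

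The genes whose profile lay nearest to this average were taken from 11408 named non-members with a mean of at least 2 FPKM, by the root mean square difference of centred log2 values over the 8 libraries. They were Ccn1 (0.174), which encodes a secreted matrix protein, Dusp6 (0.193), an ERK phosphatase, Ier2 (0.208), an immediate early gene, Arhgef3 (0.219) and Pcdhga10 (0.227). HBOT replicate 2 was not part of this ranking, and Arhgef3 and Pcdhga10 were at their lowest there, at 4.87 and 1.34 FPKM. The median candidate was at 0.493. Among the members the distance ran from 0.2299 for Egr2 to 0.642 for Nr4a1, and Jun was at 0.491. Over all 9 libraries the nearest genes were Ccn1 (0.221), Ier2 (0.235), Csrnp1 (0.241), Rnf125 (0.253) and Btg2 (0.272), against a median candidate at 0.905.

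**Figure D4:**
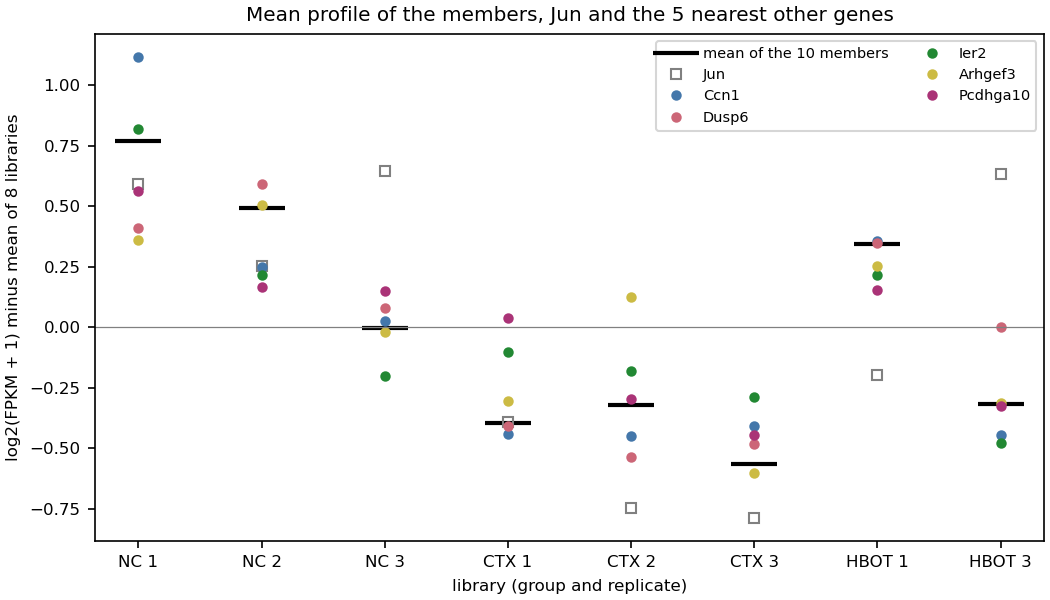
Mean centred log2(FPKM + 1) of the 10 members (black bars), Jun (open squares) and the 5 nearest other genes (coloured points) in the 8 libraries other than HBOT replicate 2. The black bars run from 0.77 in NC replicate 1 to -0.57 in CTX replicate 3, and Jun lies far above them in NC replicate 3 and HBOT replicate 3.

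Relatives of the members in the same families were followed as well. Jund, the JUN gene with steady rather than induced expression, was at 69.4, 66.8 and 81.1 FPKM in NC, 74.1, 72.3 and 87.3 in CTX, and 81.9, 99.4 and 76.5 in HBOT. Its log2 fold change between CTX and NC was 0.10 (SE 0.13, adjusted p = 0.924). Fosl1, Egr4 and Nr4a3 did not pass the filter, and each was highest in HBOT replicate 2. Fosl1 had 4.54 FPKM there and at most 0.781 elsewhere, Nr4a3 had 30.2 and at most 0.868, and Egr4 had 0.891 and at most 0.128.

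Of the other AP-1 and related bZIP factors, 8 of 9 were tested, with 2 lower and 6 higher in CTX than in NC, 0 called and a median of 0.14. Batf3, Jdp2 and Mafk were higher in CTX without overlap, as were 1762 of the 13338 tested genes. Their log2 differences were 0.45, 0.41 and 0.19 (adjusted p = 0.612, 0.567 and 0.846, limma). Atf3, a stress-induced partner of JUN, was at 2.28 ± 0.829 FPKM in NC and 1.87 ± 0.579 FPKM in CTX (SD, n = 3), and had 11.1 FPKM in HBOT replicate 2. Nab1 and Nab2 encode corepressors of EGR proteins, and Nab2 is itself an EGR target. Nab1 was at 20.1 ± 1.56 FPKM in NC and 15.5 ± 1.01 FPKM in CTX without overlap (SD, n = 3), a log2 difference of -0.36 (SE 0.13, adjusted p = 0.557). Nab2 was at 23.4 ± 4.38 FPKM in NC and 27.8 ± 2.44 FPKM in CTX (SD, n = 3), and had 63.2 FPKM in HBOT replicate 2.

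Other immediate early genes were split between CTX and NC. Of 29 listed, 28 were tested, 17 lower and 11 higher in CTX, with 0 called and a median of -0.15. Zfp36, whose product destabilizes cytokine mRNAs, was at 26.5, 25.3 and 13.1 FPKM in NC and 7.55, 8.25 and 9.49 FPKM in CTX, a log2 difference of -1.21 (SE 0.40, adjusted p = 0.486, and 0.0470 with library weights). In HBOT against CTX 26 of the 28 were higher, with a median of 0.64, and 22 without HBOT replicate 2, with a median of 0.15. Ccn2, a matrix gene of the same family as Ccn1, was at 71.3, 46.4 and 48.6 FPKM in HBOT against 35.1, 21.9 and 21.6 FPKM in CTX. Its difference of 1.06 (SE 0.23, adjusted p = 0.710) did not come from HBOT replicate 2, since it was 1.17 without that library.

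ERK feedback inhibitors are induced by the same kinase pathway and restrain it. The list used under this name is broader, since it also holds Dusp10, a phosphatase of JNK and p38. Of 12 listed, 11 were tested, with 10 lower and 1 higher in CTX than in NC, 0 called and a median of -0.12. Dusp6 was at 12.4, 14.2 and 9.64 FPKM in NC, 6.58, 5.94 and 6.20 FPKM in CTX, and 11.8, 18.1 and 9.06 FPKM in HBOT. All 3 CTX libraries were below all 6 others, with a log2 fold change of -0.84 against NC (SE 0.23, adjusted p = 0.381, and 0.0360 with library weights). Dusp1, an early phosphatase that is also induced by glucocorticoids, had another pattern, with 173, 89.9 and 21.6 FPKM in NC, 9.04, 54.8 and 28.8 FPKM in CTX, and 13.5, 31.4 and 11.5 FPKM in HBOT. Its value in HBOT replicate 2 was below those of NC replicates 1 and 2.

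Upstream kinases and factors, such as Srf and Creb1, were split evenly, with 13 of 23 lower and 10 higher in CTX than in NC, 0 called and a median of -0.04. In HBOT against CTX 12 were lower and 11 higher, with a median of -0.01. Mapk3, which encodes ERK1, had 57.3 FPKM in HBOT replicate 2, its lowest library, against 104 ± 12.7 FPKM in NC and 106 ± 21.3 FPKM in CTX (SD, n = 3).

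Genes described elsewhere as AP-1 or EGR1 targets were lower in CTX in all 9 tested cases of 11 listed, 6 of them without overlap, with 0 called and a median of -0.46. Of all tested genes, 40.5% were lower and 7.8% lower without overlap. Timp1, an inhibitor of matrix proteases, was at 125, 102 and 227 FPKM in NC, 28.1, 45.0 and 69.8 FPKM in CTX, and 193, 158 and 208 FPKM in HBOT. The CTX libraries lay below all others, with log2 fold changes of -1.65 against NC (SE 0.36, adjusted p = 0.301) and 2.03 for HBOT against CTX (SE 0.36, adjusted p = 0.579). Tgfb1, a growth factor gene with AP-1 and EGR1 sites, was at 23.2, 28.0 and 29.1 FPKM in NC, 13.1, 15.7 and 15.3 FPKM in CTX, and 30.6, 37.2 and 28.9 FPKM in HBOT. Its log2 fold change was -0.82 in CTX against NC (SE 0.14, adjusted p = 0.206, and 0.0269 with library weights) and 1.08 in HBOT against CTX (SE 0.14, adjusted p = 0.219, and 0.0462 with library weights).

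In HBOT against CTX 8 of the 9 tested targets were higher, with a median of 1.08, and 6 without HBOT replicate 2, with a median of 0.48. The log2 fold changes of Timp1 and Tgfb1 between HBOT and CTX were 2.14 and 0.97 without HBOT replicate 2. Spp1, the osteopontin gene, was at 70.6 ± 48.4 FPKM in NC and 6.43 ± 3.80 FPKM in CTX (SD, n = 3). Hmox1, a heme-degrading stress enzyme, was at 36.5 ± 3.24 FPKM in NC and 28.5 ± 3.85 FPKM in CTX (SD, n = 3).

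Genes of the ovulatory response of granulosa cells were tested for 7 of 16, all 7 lower in CTX than in NC, with 0 called and a median of -0.61. The other 9, among them Areg, Ereg, Ptgs2 and Pgr, did not pass the filter. Adamts1, a protease of the ovulating follicle, was at 11.4, 9.59 and 22.3 FPKM in NC, 5.07, 8.25 and 5.36 FPKM in CTX, and 9.24 and 6.38 FPKM in HBOT replicates 1 and 3, with 39.0 FPKM in HBOT replicate 2. Tnfaip6, a hyaluronan-binding gene of the expanding cumulus, had 188 FPKM in HBOT replicate 2 and at most 1.65 FPKM in the other 8 libraries. Rgcc, Runx2 and Edn2 of the same list were instead highest in an NC library, at 134, 41.0 and 2.46 FPKM. They had 93.4, 21.7 and 1.05 FPKM in HBOT replicate 2. In HBOT against CTX the list's median was 1.01, and 0.02 without that library.

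The markers of ovarian cell types were present, and some differed between groups alongside the members. Of the 5 luteal markers, 5 reached 1 FPKM in every library, and their summed level was 2332 to 2834 FPKM in NC and 342 to 470 FPKM in CTX. It was 353 FPKM in HBOT replicate 1, 517 in replicate 2 and 3063 in replicate 3. The luteal sum was thus high in HBOT replicate 3, where the members' average lay with CTX, and low in HBOT replicates 1 and 2. Jun differed from that average, with 40.1 FPKM in HBOT replicate 3, 22.2 in replicate 1 and 33.7 in replicate 2. How Jun or the other members relate to the luteal sum was not tested. A sum follows its most abundant genes, and the 5 markers did not all move together. In CTX against NC 4 were lower and 1 higher, with 2 lower without overlap (7.8% of tested genes). In HBOT against CTX 3 were lower and 2 higher, with or without HBOT replicate 2. All 8 granulosa markers reached 1 FPKM in every library, with sums of 1410 to 2061 FPKM in NC, 1512 to 2529 in CTX and 1817 to 2322 in HBOT. All 7 oocyte markers did too, with sums of 116 to 166 FPKM in NC, 183 to 280 in CTX and 271 to 308 in HBOT.

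Neutrophil and macrophage markers were lowest in NC. The 6 neutrophil markers, of which between 0 and 5 reached 1 FPKM and S100a8, Retnlg and Ly6g were at 0 in some library, summed to 0.880 to 1.93 FPKM in NC, 7.03 to 33.7 in CTX and 13.1 to 37.5 in HBOT. The 6 macrophage markers, all at 1 FPKM or more in every library, summed to 75.4 to 84.5 FPKM in NC, 92.6 to 128 in CTX and 95.1 to 140 in HBOT. The 5 erythroid markers that passed the filter were all higher in CTX than in NC without overlap, with a median log2 fold change of 2.30 and 0 called. Of all 13338 tested genes, 1762 were higher in CTX without overlap. Mitochondrially encoded transcripts made up 7.67% to 8.88% of the summed FPKM in NC, 7.94% to 9.26% in CTX and 9.08% to 10.2% in HBOT, highest in HBOT replicate 2. The summed levels of theca, smooth muscle, endothelial, epithelial and adipocyte markers overlapped between NC and CTX. Of single genes in these lists, 1 smooth muscle and pericyte marker and 1 endothelial marker were lower in CTX without overlap (7.8% of tested genes). The 5 theca markers summed to 6270 to 9155 FPKM in NC, 4676 to 9080 in CTX and 3841 to 6695 in HBOT, lowest in HBOT replicate 2. The 6 endothelial markers summed to 60.9 to 68.8, 55.5 to 63.7 and 58.0 to 66.2 FPKM in the same order of groups. The 6 smooth muscle and pericyte markers summed to 294 to 380, 307 to 370 and 349 to 490 FPKM. The part of these markers and of the mitochondrial share in the levels of the members was not tested.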

How the data were processed

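The authors deposited 1 table of FPKM for 9 libraries of polyadenylated ovary RNA, with 747 of its 22544 entries assembled loci. The tool named is fastp 0.23.4 and the genome was GRCm39 (mm39), per the submitters' processing notes. Which aligner, counter and annotation were used is not given in the sources used here. Columns were matched by name, and 0 stayed unmatched. FPKM carries no counts, so depth is unknown and count tests were not used.

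Values were taken as log2(FPKM + 1), and entries with at least 1 FPKM in at least 3 libraries were kept. A linear model with a mean per group, over the 9 libraries together, was fitted in limma 3.58.1 (R 4.3.3, eBayes with trend, 6 residual degrees of freedom). P-values were adjusted by Benjamini-Hochberg over 13338 entries, with calls at an adjusted p under 0.05. The fit was tested on simulated data in which each gene had the same spread in every library. That setting holds no library that stands apart as HBOT replicate 2 does, so it cannot show how the fit behaves with one. Members and gene lists were chosen with earlier results of these data known.

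All members were named, and of each other list the 4 genes with the smallest p in CTX against NC and the 2 in HBOT against CTX, of which the text gives some. Settings tried as alternatives were TPM, median-of-ratios and quantile scaling, 2-group fits, a replicate block, library weights, leaving out each library, a pseudocount of 0.1, and filtering at 5 FPKM or not at all. A fit without HBOT replicate 2 and NC replicate 1 was added after seeing the data. Promoters came from RefSeq on GRCm38.p6 and overlapping exons from GENCODE M21, whose build differs from that of the deposited table. The only coordinates given are those of the promoter windows shown, on GRCm38.p6. Motifs were searched with Python 3.11.15 and figures drawn with matplotlib 3.10.9.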

Additional observations from a re-analysis of the deposited data

How the results depend on the processing

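Jun was called in 1 setting, library weights, in CTX against NC (log2 fold change -1.18, adjusted p = 0.0470, limma). In the same setting Zfp36 (-1.34, adjusted p = 0.0470), Dusp6 (-0.91, adjusted p = 0.0360) and Tgfb1 (-0.74, adjusted p = 0.0269) were called, and in no other setting, as was Tgfb1 in HBOT against CTX (0.95, adjusted p = 0.0462). No other member was called in any comparison under any setting run. Of the other genes followed across the settings, no further one was called in CTX against NC. Some genes named here, such as Ier2, Btg2 and Prdx2, were not followed in this way. In CTX against NC, 9 or 10 of the 10 members were lower in all settings, with a median of -1.18 to -0.58. With 1 library left out, CTX against NC covered -1.54 to -0.70 for Fos, -0.48 to -0.22 for Fosl2, -1.62 to -1.10 for Junb, -2.02 to -1.11 for Egr1, -0.74 to -0.47 for Egr2 and -2.26 to -1.12 for Nr4a1. A pseudocount of 0.1 gave -0.81 for Fosb, -0.83 for Egr3 and -1.19 for Egr2, against -0.29, -0.35 and -0.64, and TPM scaling gave -0.52 for Fosb and -0.59 for Egr3. In HBOT against CTX 9 or 10 were higher. Depth is unknown, so counting error cannot be separated from other spread, and Fosb and Egr3 have no value where a setting tests only entries past the filter.

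In CTX against NC, 31 genes were called in a fit of these 2 groups only, 123 with library weights, 1 without both HBOT replicate 2 and NC replicate 1, and 0 to 9 with 1 library left out (1 without NC replicate 1, 8 without HBOT replicate 2, 9 without HBOT replicate 3). In HBOT against CTX the counts were 1 with no filter, 5 with weights and 0 to 1 with 1 library left out (1 without NC replicate 3, CTX replicate 1 or CTX replicate 2). In HBOT against NC they were 1 with no filter, 181 with weights, 1 without both libraries and 0 to 3 with 1 left out (1 without NC replicate 1 or 3, 3 without HBOT replicate 3). The cause was not tested.

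The median of the members in HBOT against CTX was 0.42 without both libraries and 0.42 to 2.01 with 1 library left out, lowest without HBOT replicate 2. In HBOT against NC it was -0.27 with weights, -0.25 without both libraries and -0.26 to 0.96 with 1 left out, and 3 members were higher with weights, 3 without both libraries and 3 to 9 with 1 left out. In that comparison weights turned Fos (-0.42), Junb (-0.81), Egr1 (-0.94) and Nr4a2 (-0.16) negative. Leaving out both libraries turned Junb (-0.64), Egr1 (-0.38), Egr3 (-0.031) and Nr4a2 (-0.33). Median-of-ratios scaling gave 0.017 for Fosl2, and TPM and quantile scaling gave -0.0087 and -0.020 for Egr1. With 1 library left out, HBOT against NC covered -0.39 to 0.90 for Fos, -0.24 to 0.22 for Fosl2, -0.40 to 0.013 for Jun, -0.84 to 0.93 for Junb, -0.91 to 0.77 for Egr1, 0.0076 to 1.65 for Egr3, -1.31 to 0.99 for Nr4a1 and -0.25 to 1.02 for Nr4a2.

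Nr4a2 in HBOT against CTX was at -0.20 with weights, -0.26 without both libraries and -0.26 to 1.01 with 1 left out. In CTX against NC it was at -0.013 under TPM scaling, -0.022 under median of ratios, -0.075 under quantiles, -0.07 without both libraries and -0.10 to 0.21 with 1 left out. Mapk3 there was at -0.018 under TPM scaling, -0.029 under median of ratios and -0.10 to 0.19 with 1 left out. Atf3 covered -0.35 to 0.0064 and Runx2 -1.55 to 0.12 with 1 left out, Runx2 positive without CTX replicate 1.

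Correlations did not show that replicate numbers pair the samples, but deviations from means of only 3 libraries cannot exclude it. The deviations of same-numbered libraries had correlations of -0.29 to 0.16 over 9 pairs, and those of other pairs -0.30 to 0.41. With the replicate block 0 genes were called in any comparison, with 969 genes at an unadjusted p under 0.05 in CTX against NC, and Jun had an adjusted p of 0.408 with a log2 fold change of -1.14.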

Other observations

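Heat shock genes, which protein damage and tissue stress induce through HSF1, gave values that differed from gene to gene. The 8 genes of the list summed to 1624 FPKM in HBOT replicate 2, the highest library, and to 941 to 1412 FPKM in the other 8. In CTX against NC 6 of the 8 were higher and 2 lower, with 0 called by limma and a median of 0.30, and in HBOT against CTX 4 were higher and 4 lower, with a median of 0.01. Hspa1a, the inducible HSP70 gene, had 3.66 FPKM in HBOT replicate 2, its lowest library, and 6.10 to 15.7 FPKM in the other 8. Its neighbour and near-identical copy Hspa1b had 6.82 FPKM there and 11.3 to 28.9 FPKM elsewhere, and reads of the pair may be split between them. Hsph1, a co-chaperone of HSP70, was highest in HBOT replicate 2, at 91.6 FPKM against 36.3 to 74.1 FPKM elsewhere, and Hspa8, the constitutive HSP70 gene, had 820 FPKM there against 563 to 781 FPKM. No difference between HBOT replicate 2 and the other libraries was tested for these genes.

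Dusp10, a phosphatase of JNK and p38, had 31.2 FPKM in HBOT replicate 2 and 2.43 to 4.73 FPKM in the other 8 libraries. Its log2 fold change between HBOT and CTX was 1.10 (SE 0.72, adjusted p = 0.710, limma) and 0.07 without that library. Runx2, a transcription factor gene of the ovulatory list, had 2.44 FPKM in CTX replicate 1 and 32.3 and 33.9 FPKM in CTX replicates 2 and 3, a wider split than that of any member within CTX.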
